A study of Rattus norvegicus with 2 samples.

Results

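The 60 genes described here encode proteins that cut introns out of pre-mRNA or that coat it as it is made. They were taken by name from 16484 genes with an NCBI gene ID in a table of 113011 features of rat urine RNA, as those whose symbol begins with Sf3a, Sf3b, Snrp, Srsf, Hnrnp or Prpf. They form 5 families: 9 Sf3 genes, 11 Snrp, 11 Srsf, 17 Hnrnp and 12 Prpf genes. The Sprague Dawley rats were 8 weeks old at surgery (the labels also give postnatal day 56). In the group named UUO (unilateral ureteral obstruction) the right ureter was ligated. In the group named WT the rats had the same operation without the ligation, so that WT stands for sham-operated animals and for no genotype. Urine was drawn from the ureter by catheter 2 weeks later, and 1 library was sequenced per group. The number of rats behind each library is not given in the sources used here.

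With 1 library per group there is no replicate error, no test and no p-value, and every difference below is one between these 2 libraries. The table names its columns UrRf and Urc, which were read as UUO and WT from the series title and because lists published with the study give identical values for UUO and sham urine. If the names stood the other way round, every direction below would turn. Levels are in FPKM, a fragment count divided by transcript length and library size. Differences are log2(FPKM + 1) in UUO minus the same in WT, a scale that understates the change of low genes. "At least 2-fold" means a difference of 1 or more in size on that scale, and "detected" an FPKM of at least 1.

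Splicing is carried out by the spliceosome, which is built from small nuclear ribonucleoproteins (snRNPs), each a small nuclear RNA wrapped in a ring of Sm proteins. The SF3a and SF3b complexes hold the U2 snRNP at the branch point of the intron, and PRPF proteins join and drive the later stages. SR proteins (SRSF) bind exons and recruit this machinery, whereas hnRNP proteins coat the pre-mRNA and promote or repress the use of splice sites. Nearly every nucleated cell makes these transcripts, whatever its type. By the paper's methods the urine was spun down before freezing and again once thawed, without saying whether pellet or supernatant was used. Fewer cells of a type, less RNA per cell and a change in RNA outside cells cannot be told apart in such samples.

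Urine held RNA of several cell types. Of 6 urothelial markers, WT urine held 5 and UUO urine 6 at a detected level, with a summed FPKM of 806 and 1112 (Krt5 was listed at 0 in WT). All 8 tubule markers were detected in both libraries, summing to 209 in WT against 134 in UUO urine. Of 3 blood markers, WT urine held 1 and UUO urine 3 at a detected level, with sums of 878 and 55261. Of 8 leukocyte markers, WT urine held 2 and UUO urine 7, with sums of 9.61 and 139 (Cd3e, Cd68, Itgam, Ptprc, S100a8 and S100a9 were at 0 in WT, and Cd3e alone in UUO). The part of this shift of markers in the values below was not tested. Fitted within a bounded range, the steps of the FPKM values in assembled features corresponded to a normalising total of 2116000 fragments in WT and 2444000 in UUO urine.

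By their gene entries, most of the splicing genes were lower in UUO urine, apart from the SR protein genes. Of the 60 genes, WT urine held 45 and UUO urine 50 at a detected level, 42 of them in common and 53 in all. Of all 16484 genes with an NCBI gene ID, WT urine held 7793 and UUO urine 9278, with 7218 in common and 9853 in all. For the 60 genes the other sums were as follows. The summed FPKM of the 60 genes was 2078 in WT against 861 in UUO urine, or 0.616% and 0.317% of the sum over all genes with an NCBI gene ID. Of the 53 detected genes, 26 (49.1%) were at least 2-fold lower and 9 (17.0%) at least 2-fold higher in UUO urine. Among all 9853 detected genes with an NCBI gene ID the shares were 36.5% lower and 25.7% higher. Rescaled by the median ratio between the libraries, 12 of the splicing genes were lower and 11 higher, against 15.6% and 39.8% of all detected genes. The median difference of the 53 genes was -0.999, against -0.51 over all detected genes.

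Of the 9 higher genes, 8 were listed at 0 in WT urine. They were 15.1% of the 53 detected genes, against 19.3% of all detected genes. Whether an FPKM of 0 in this table was a true count or a failed estimate was not tested. At 0 in both libraries were 26 of 89 cytosolic ribosomal protein genes and 4294 of all 16484 genes. Among the 42 genes detected in both libraries 23 (54.8%) were lower and 1 higher, Srsf4, against 42.8% and 7.01% of 7218 such genes. The shares also moved with the level. Among genes that reached an FPKM of 10 in 1 or both libraries, 26 of 41 splicing genes (63.4%) were lower and 3 (7.32%) higher, against 51.0% and 10.4% of 5618 genes. In each of these counts the share of lower genes was above the background and the share of higher genes below it, with no test of the gap possible.

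**Figure D1:**
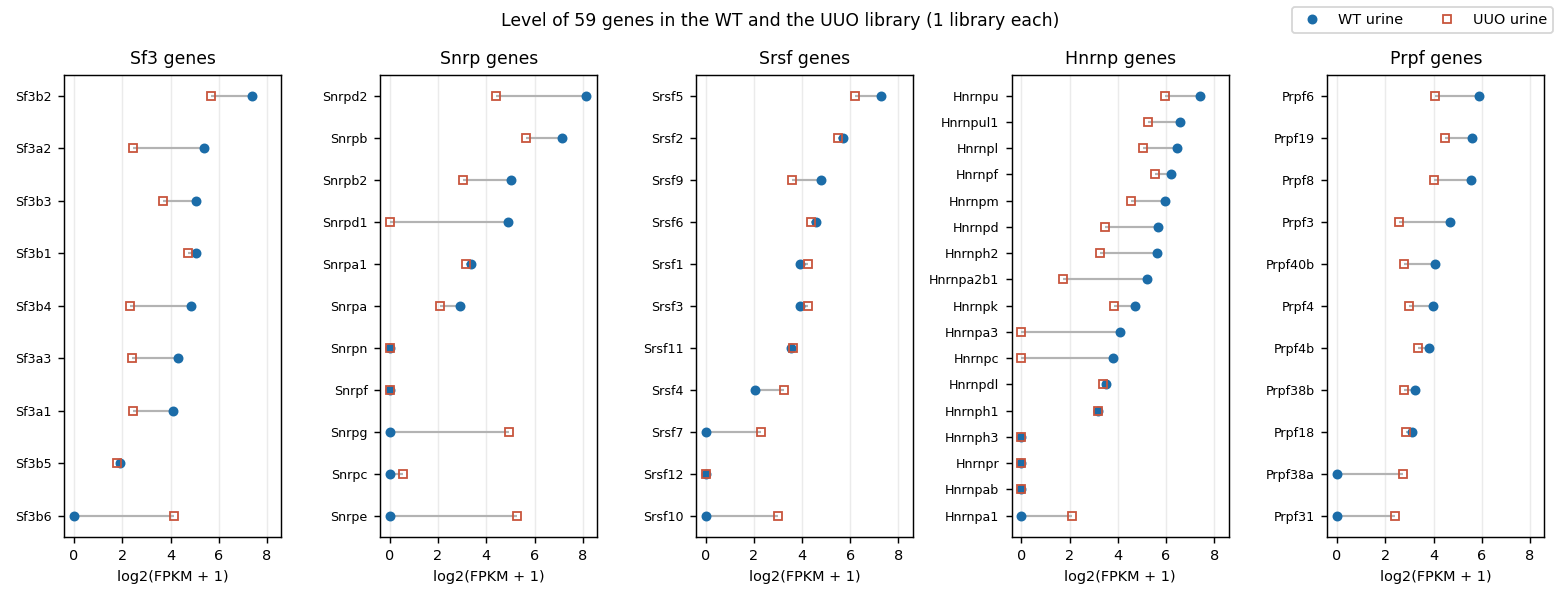
Level of 59 of the 60 genes in WT urine (filled circles) and UUO urine (open squares) on the log2(FPKM + 1) scale, 1 panel per family and 1 library per symbol, with a line joining the pair. In the Sf3, Hnrnp and Prpf panels most circles lie to the right of the squares, while in the Srsf panel several pairs nearly coincide.

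The 5 families did not move alike. The median difference was -1.67 for Sf3, -1.40 for Hnrnp, -1.15 for Snrp, -0.82 for Prpf and 0.19 for Srsf genes. The Srsf median was the highest of the 5 under each of 10 other settings, but its sign was not stable, at -0.055 over the 8 Srsf genes detected in both libraries and -0.48 when FPKM was summed over each locus. With locus sums 4 of 10 detected Srsf genes were at least 2-fold lower and 2 higher, against 32.1% and 23.0% of all genes. The median over all detected genes was then -0.425. Rescaling by the median ratio, which moves the median of all detected genes from -0.51 to 0.29, left the Sf3, Hnrnp and Snrp medians below 0 and brought the Prpf median to 0.0077. Summed FPKM was closest in the Srsf family, at 298 in WT against 214 in UUO urine, a ratio of 1.39. The same ratio of WT to UUO was 3.22 for Snrp, 2.72 for Hnrnp, 2.69 for Sf3 and 2.25 for Prpf genes, and 1.24 for all genes with an NCBI gene ID.

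**Figure D2:**
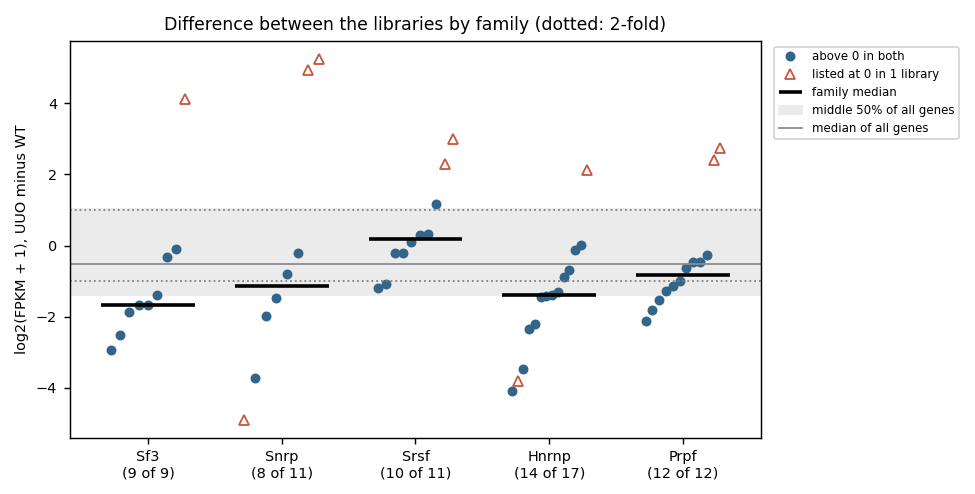
Difference of log2(FPKM + 1), UUO minus WT, of the 53 detected genes by family, with filled circles for genes above 0 in both libraries and open triangles for genes listed at 0 in 1 of them. Black bars are family medians, the grey line and band are the median and middle 50% of all 9853 detected genes, and the dotted lines mark 2-fold; the Srsf bar, at 0.19, is the only one above the grey line.

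The SF3 genes gave the lowest median of the 5 families, and did so in 7 of 10 other settings. The Snrp median was lower among genes that reached FPKM 10 (-1.74 against -1.67) and without genes listed on another chromosome than in GRCr8 (-1.74 against -1.67), and the Hnrnp median was lower with a pseudocount of 10 (-1.18 against -0.97). SF3a has 3 subunits, and all were lower in UUO urine. Loci are given as listed, in the rn5 build. Sf3a2 (chromosome 7, 11945540 to 11951580), which contacts the U2 snRNP, stood at FPKM 41.2 in WT against 4.46 in UUO urine, 9.23-fold apart and a difference of -2.95. Sf3a3 had 18.7 and 4.33, and Sf3a1 16.2 and 4.38. By gene entries the 3 subunits thus lay within 4.33 to 4.46 in UUO urine, whereas in WT urine Sf3a2 stood above the others. With locus sums Sf3a2 stood above them in UUO urine too, at 8.07 against 4.88 for Sf3a1 and 4.85 for Sf3a3. The difference of Sf3a2 was then -2.22. Of SF3b, Sf3b2 (chromosome 1, 227575696 to 227595347) was the most abundant gene of the family in both libraries, at 163 in WT against 50.8 in UUO urine, a difference of -1.67.

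Sf3b4, which binds RNA beside the branch point, had 27.6 in WT against 4.02 in UUO urine, a difference of -2.51. Sf3b3 had 32.7 and 11.7. Sf3b1, the scaffold of the complex that holds the branch point adenosine, differed least of the abundant subunits, with 32.0 in WT against 25.5 in UUO urine, a difference of -0.32. The small subunits differed from these. Sf3b5 had 2.71 in WT against 2.46 in UUO urine, but another feature of its locus, NONRATG000021, held 228 and 113. Sf3b6 (chromosome 6, 39886844 to 39895262), which touches the branch point, was listed at 0 in WT and at 16.5 in UUO urine, and no other feature shares its locus. The summed FPKM of SF3a was 76.1 in WT against 13.2 in UUO urine (5.78-fold), and that of SF3b 258 and 111 (2.33-fold).

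The Snrp genes encode the Sm ring and proteins particular to U1 and U2. They held both the lowest and the highest difference of all 60 genes, each in a gene listed at 0 in 1 library (Snrpd1, -4.90, and Snrpe, 5.26). Snrpd2 (chromosome 1, 81324029 to 81326886) was the most abundant splicing gene of WT urine, with an FPKM of 284, and had 20.4 in UUO urine, 13.9-fold less and a difference of -3.73. Its partner in the ring, Snrpd1, had 28.9 in WT urine and was listed at 0 in UUO urine. Snrpb (chromosome 3, 129195355 to 129204627), which encodes SmB, had 139 and 48.9, a difference of -1.49.

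The other detected Sm genes showed the reverse. Snrpe was listed at 0 in WT and at 37.2 in UUO urine, and Snrpg at 0 and 29.5. Both entries are short and alone at their locus, Snrpe on chromosome 8 (128569147 to 128569575, 428 bp) and Snrpg on chromosome 1 (92715837 to 92716262, 425 bp). By the fitted steps they correspond to 23 fragments (exact 95% Poisson interval 14.6 to 34.5) and 18 fragments (10.7 to 28.4) in UUO urine. These counts hold if the whole span is transcript and the fitted totals are right. In WT urine a count of 0 allows up to 3 fragments, an FPKM of 4.73 for Snrpe and 4.77 for Snrpg, if the listed 0 is a true count. Intervals and limits cover counting error only. They were computed for genes already known to have the highest differences of the family, so no conclusion is drawn from the gap.

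RefSeq places both Snrpe and Snrpg on another chromosome of the GRCr8 assembly, and names 3 pseudogenes of Snrpe and 8 of Snrpg, so the listed loci may not be those of the genes themselves. Whether the fragments stem from the gene or from such a copy was not tested. Snrpf and Snrpn were listed at 0 in both libraries, and Snrpd3 was not analysed here. Of 7 Sm genes, then, only Snrpb and Snrpd2 were above 0 in both libraries.

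Of the U2 proteins, Snrpb2 had 31.7 in WT against 7.22 in UUO urine, a difference of -1.99, and Snrpa1, which pairs with it, had 9.32 and 7.96, a difference of -0.20. Of the U1 proteins, Snrpa had 6.5 in WT against 3.27 in UUO urine, and Snrpc was listed at 0 in WT and at 0.456 in UUO urine. Without the 4 genes that GRCr8 has on another chromosome (Snrpe, Snrpg, Hnrnpc and Prpf40b) (a choice made after seeing the data) the Snrp median was -1.74 and 24 genes of all families were lower and 7 higher.

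By their gene entries, SR protein genes were the most evenly matched between the libraries. Srsf5 (chromosome 6, 112776216 to 112780506) was the most abundant of them, at 156 in WT against 72.8 in UUO urine, a difference of -1.09. It was also the most abundant splicing gene of UUO urine. Srsf9 was lower as well, with 26.4 and 11.0, a difference of -1.19. The other abundant members hardly differed. Srsf2, also called SC35, had 50.9 in WT against 44.1 in UUO urine, and Srsf6 had 22.9 and 19.6.

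Srsf1, the first SR protein described and a regulator of many exons, had 14.3 in WT against 17.8 in UUO urine. Srsf3, the smallest SR protein, had 14.0 and 17.9, and Srsf11 10.7 and 11.5. Srsf4 (chromosome 5, 153711720 to 153740809) was the only one of the 60 genes detected in both libraries that was at least 2-fold higher in UUO urine, with 3.15 in WT against 8.40 in UUO urine, a difference of 1.18. Srsf7 and Srsf10 were listed at 0 in WT and at 3.88 and 7.02 in UUO urine. Srsf12 was listed at 0 in both.

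At both of these loci overlapping entries held WT signal. At the Srsf10 locus on chromosome 5 (157970231 to 157984381), which holds 10 features, NONRATT043841 had 22.9 in WT against 1.37 in UUO urine and NONRATT043842 had 17.4 and 3.43. The locus sum was 45.3 in WT against 12.9 in UUO urine, a difference of -1.74 and opposite in direction to the gene entry. At the Srsf1 locus NONRATT011796 had 95.8 in WT against 0 in UUO urine, and the locus sum was 126 and 21.5. At the Srsf6 locus NONRATT036235 had 46.4 in WT against 0 in UUO urine, with sums of 81.0 and 24.8. The Srsf7 locus summed to 2.48 in WT against 6.57 in UUO urine. These NONRAT entries are noncoding RNAs of a database that overlap the gene, and the direction for Srsf1 and Srsf10 depended on whether they were summed with the gene.

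The hnRNP genes were the largest family. Of 14 detected ones, 9 (64.3%) were at least 2-fold lower and 1 (7.14%) higher in UUO urine. The shares were 66.7% and 11.1% of Sf3 genes, and 36.5% and 25.7% of all detected genes. Hnrnpu (chromosome 13, 100670539 to 100681056), which binds chromatin as well as RNA, stood at FPKM 167 in WT against 60.6 in UUO urine, a difference of -1.45. Hnrnpul1, related to it, had 94.9 and 37.4, and Hnrnpl, a binder of CA repeats, had 86.7 and 31.6. Hnrnpm had 60.3 and 22.6. These 4 genes were 2.54-fold to 2.76-fold lower in UUO urine. Hnrnpf, as abundant as Hnrnpl by the mean of both libraries, had 73.8 in WT against 45.7 in UUO urine, 1.61-fold apart and under the 2-fold limit.

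A second group lay further apart. Hnrnpa2b1 (chromosome 4, 145901347 to 145909884), which also sorts microRNAs into exosomes, had 35.6 in WT against 2.28 in UUO urine, a difference of -3.48. Hnrnph2 had 48.0 and 8.58, 5.6-fold apart, and Hnrnpd (AUF1), which binds AU-rich elements of unstable mRNAs, had 49.4 and 9.95, 4.96-fold apart. Hnrnpc had 13.1 in WT urine and was listed at 0 in UUO urine. Hnrnpa3 had 16.1 in WT against 0.000961 in UUO urine, a difference of -4.10, but its 12 locus features together gave 20.9 and 22.1, a difference of 0.079. For Hnrnpa2b1 the locus sum was 49.2 and 12.9, a difference of -1.85 in the same direction.

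Hnrnpk, a binder of C-rich stretches, had 25.6 in WT against 13.5 in UUO urine, a difference of -0.88 that stayed under the 2-fold limit. Hnrnph1 had 7.95 and 8.07, and Hnrnpdl 10.3 and 9.47. Hnrnph1 and Hnrnph2, which encode closely related proteins, thus differed by 0.02 and -2.36 by gene entries. With locus sums both were lower in UUO urine, with differences of -0.73 and -2.07. Hnrnpa1, the best known of the family, was listed at 0 in WT and at 3.33 in UUO urine. RefSeq names 51 pseudogenes of Hnrnpa1, whose part in these values was not tested. Hnrnpab, Hnrnph3 and Hnrnpr were listed at 0 in both libraries.

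The promoters of the families differed in a feature that the choice of genes did not use. The RefSeq table of GRCr8 gives the 250 bases before and 50 after the start of 58 of the 60 genes. The letters CCAAT, on either strand, were in the window of 15 of 17 Hnrnp genes (88.2%) and 1 of 8 Sf3 genes (12.5%), against 38.5% of 8100 detected genes and 39.6% of all 27457 genes with a window. The shares were 5 of 11 for Snrp, 4 of 11 for Srsf and 6 of 11 for Prpf genes. The GC box GGGCGG, also on either strand and counted separately (the motifs may overlap), was in 9 of 11 Srsf, 13 of 17 Hnrnp, 4 of 8 Sf3, 3 of 11 Snrp and 3 of 11 Prpf genes, against 63.4% of detected genes and 36.0% of all genes. A match describes the letters only.

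Sequences of 170 bases before the start are shown for 4 Hnrnp genes, 3 with several CCAAT motifs and Hnrnpa2b1 with a single one, and for Sf3b1, which has none. They are read 5′ to 3′ along the gene, and capitals mark CCAAT or its reverse complement. Hnrnpul1 and Hnrnpl were among the abundant genes 2.54-fold and 2.74-fold lower in UUO urine, Hnrnpa2b1 was 15.6-fold lower, Hnrnpa1 was listed at 0 in WT urine, and Sf3b1 differed by 1.25-fold.
Hnrnpul1 (GRCr8, chr1:90390371-90390540, minus strand): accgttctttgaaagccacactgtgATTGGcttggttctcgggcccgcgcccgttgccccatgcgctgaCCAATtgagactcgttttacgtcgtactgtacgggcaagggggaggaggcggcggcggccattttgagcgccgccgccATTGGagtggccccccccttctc
Hnrnpl (GRCr8, chr1:93228231-93228400, plus strand): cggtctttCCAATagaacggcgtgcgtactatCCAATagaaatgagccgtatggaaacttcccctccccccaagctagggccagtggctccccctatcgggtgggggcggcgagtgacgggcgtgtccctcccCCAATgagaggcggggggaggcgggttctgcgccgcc
Hnrnpa2b1 (GRCr8, chr4:81875887-81876056, minus strand): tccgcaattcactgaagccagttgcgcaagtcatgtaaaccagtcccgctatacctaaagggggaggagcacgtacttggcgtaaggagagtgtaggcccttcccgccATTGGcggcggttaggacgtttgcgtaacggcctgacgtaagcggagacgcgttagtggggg
Hnrnpa1 (GRCr8, chr7:136253948-136254117, plus strand): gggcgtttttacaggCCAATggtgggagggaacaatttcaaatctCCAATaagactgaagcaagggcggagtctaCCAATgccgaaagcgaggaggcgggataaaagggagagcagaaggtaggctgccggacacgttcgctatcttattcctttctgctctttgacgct
Sf3b1 (GRCr8, chr9:64026720-64026889, minus strand): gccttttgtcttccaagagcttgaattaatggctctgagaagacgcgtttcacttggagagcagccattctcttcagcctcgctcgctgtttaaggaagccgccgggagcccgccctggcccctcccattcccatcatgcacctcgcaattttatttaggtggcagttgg

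**Figure D3:**
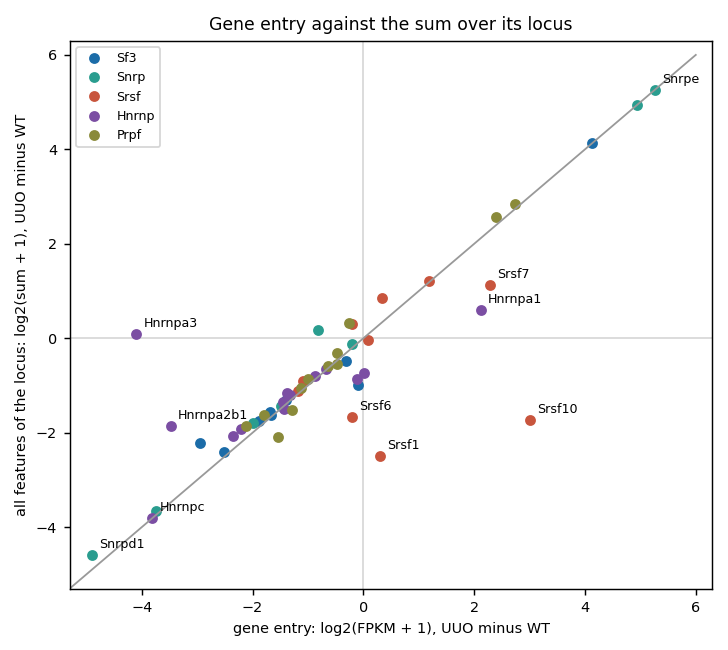
Difference of log2(FPKM + 1), UUO minus WT, of the gene entry (x axis) against that of the FPKM summed over all features of its listed locus (y axis) for the 53 detected genes, coloured by family, with the diagonal as a line. Most genes lie near the diagonal, while Hnrnpa3 rises from -4.10 to 0.079 and Srsf10, Srsf1 and Srsf6 lie far below it.

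Of the 60 genes, 56 share their locus with other features, with a median of 7 features at a locus. Of the 53 detected genes, 8 had the opposite sign with the locus sum (Hnrnpa3, Hnrnph1, Prpf18, Snrpa, Srsf1, Srsf2, Srsf10 and Srsf11). With locus sums 27 genes were at least 2-fold lower and 7 higher, against 32.1% and 23.0% of all genes. Of the 8 genes listed at 0 in WT urine yet detected in UUO urine, 5 had a WT locus sum of 0 as well, namely Sf3b6, Snrpe, Snrpg, Prpf31 and Prpf38a. The other 3 (Hnrnpa1, Srsf7 and Srsf10) had WT signal in overlapping entries.

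PRPF proteins act in the U4/U6.U5 tri-snRNP and in activation of the spliceosome. Prpf8 (chromosome 10, 64348557 to 64371667), the large protein at the heart of the catalytic centre, stood at FPKM 46.5 in WT against 15.3 in UUO urine, a difference of -1.54. At the Prpf8 locus NONRATT011574 had 37.7 in WT against 0.0598 in UUO urine. The locus sum was 93.3 and 21.2, a difference of -2.09. Prpf6, which bridges the snRNPs, had 57.5 and 15.8, a difference of -1.80. Prpf3, a U4/U6 protein, had 24.9 and 4.98, a difference of -2.11 (-1.85 with locus sums) and the lowest of the family by gene entries. Its partner Prpf4 had 14.7 and 6.87, a difference of -0.999 that fell just short of the limit. Prpf31, a further U4/U6 protein, was listed at 0 in WT and at 4.28 in UUO urine. Over these 5 tri-snRNP genes the summed FPKM was 144 in WT against 47.2 in UUO urine.

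Prpf19, the ubiquitin ligase that names the NTC complex, had 47.5 in WT against 21.1 in UUO urine, a difference of -1.13. Prpf40b had 15.9 and 5.95. Prpf4b, a kinase, had 13.1 and 9.17, Prpf38b 8.41 and 5.79, and Prpf18, a factor of the second step, 7.56 and 6.18. Prpf38a was listed at 0 in WT and at 5.70 in UUO urine. Nearest to the 2-fold limit among all 60 genes were Srsf5 (-1.09), Prpf19 (-1.13) and Srsf4 (1.18) inside it and Prpf4 (-0.999), Hnrnpk (-0.88) and Snrpa (-0.81) outside it. Scaled to equal sums over all genes, Srsf5 (-0.77), Srsf9 (-0.90) and Prpf19 (-0.83) came under the limit, and Srsf2 (0.11), Srsf6 (0.091), Hnrnpdl (0.17), Snrpa1 (0.079), Sf3b5 (0.13) and Prpf18 (0.023) turned from lower to higher.

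By their gene entries, splicing genes outside the 5 families were mostly lower in UUO urine too. The table held 83 such genes, 78 of them detected, with 40 (51.3%) at least 2-fold lower and 7 (8.97%) higher in UUO urine, against 36.5% and 25.7% of all detected genes, and a median difference of -1.03. All 7 higher ones were listed at 0 in WT, as were 19.3% of all detected genes. With locus sums 33 of the 78 were lower and 6 higher, against 32.1% and 23.0% of all detected genes. The median was then -0.80, against -0.425 over all detected genes. The roles below hold 4 to 22 detected genes each, and their counts by gene entries stand against the shares of 36.5% and 25.7%. Of the 4 genes of 3′ splice site recognition all were lower, Puf60 most (85.8 in WT against 21.6 in UUO urine) and U2af1 next (46.1 and 14.6), with Sf1 (37.3 and 16.5) and Rbm17 (21.9 and 7.52) closest. Of 11 further snRNP proteins 7 were lower and 0 higher, among them Snrnp70, the U1-70K protein, at 44.5 and 6.18, and Sart1 at 106 and 22.9, while Phf5a (20.1 and 16.7) and Snrnp200 (28.2 and 16.8) differed least.

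LSm proteins form rings on U6 RNA, and some act instead on decaying mRNA (Lsm1) or on U7 RNA (Lsm10 and Lsm11). Of 10 LSm genes 5 were lower, with Lsm5 at 24.1 in WT against 3.54 in UUO urine and Lsm4 at 76.0 and 16.7, and 3 (Lsm1, Lsm7 and Lsm10) were listed at 0 in WT, Lsm7 at 10.8 and Lsm1 at 4.99 in UUO urine. Of 13 genes of the NTC and the step helicases 7 were lower, with Slu7 at 39.5 and 7.67 and Dhx16 at 44.5 and 12.6, while Plrg1 (4.40 and 8.32) and Bcas2 (27.2 and 38) had the highest differences, 0.79 and 0.47. Of 7 detected exon junction complex genes 4 were lower, with Casc3 at 27.5 and 5.74 and its core helicase Eif4a3 at 67.3 and 17.1, and Rnps1 (31.0 and 24.4) and Magoh (27.0 and 15.3) differed least.

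SR-related genes and the kinases of SR proteins had a median difference of -0.48, and one of -0.074 with locus sums. Of 11, 2 were lower, Clk3 at 54.1 in WT against 8.53 in UUO urine and Tra2b at 10.7 and 3.87. The kinases Clk1 and Clk4 were listed at 0 in WT and at 8.85 and 3.31 in UUO urine. Of 22 detected RNA-binding regulators 11 were lower and 2 higher by gene entries, with a median of -0.99. With locus sums 6 of them were lower and 2 higher, with a median of -0.62. Tia1 had 11.5 in WT against 1.21 in UUO urine and Syncrip 31.9 and 6.73, while Mbnl3 and Taf15 were listed at 0 in WT and at 3.71 and 1.51 in UUO urine.

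**Figure D4:**
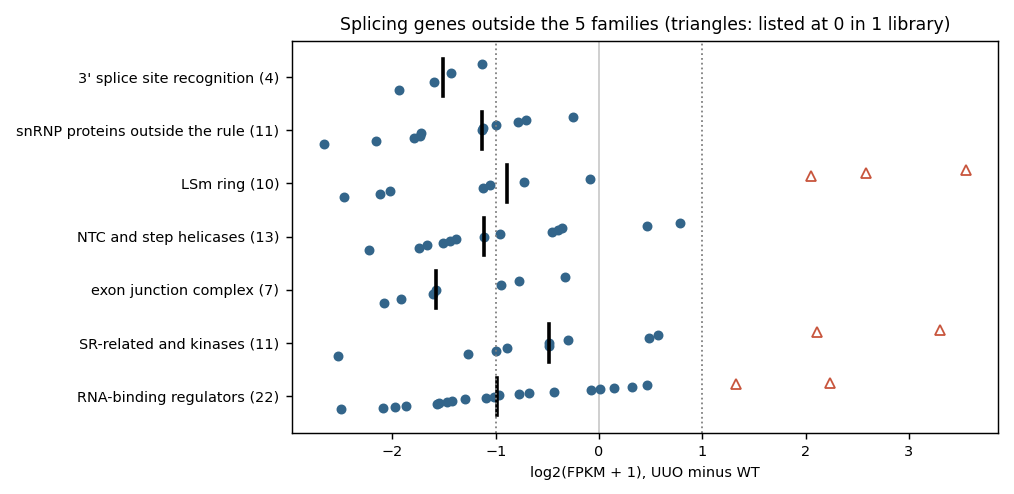
Difference of log2(FPKM + 1), UUO minus WT, of 78 detected splicing genes outside the 5 families, by role, with the number of genes in brackets, black bars for medians, dotted lines at 2-fold and open triangles for genes listed at 0 in 1 library. The medians lie between -1.57 for the exon junction complex and -0.48 for SR-related genes and kinases, and every point above 1 is a triangle.

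Other genes that most cells use were set beside the splicing genes, with 36.5% lower and 25.7% higher among all detected genes as the background. Among proteasome subunits 25 of 46 detected genes were at least 2-fold lower and 3 higher, with a median of -1.07. Among translation initiation and elongation factors 26 of 59 were lower and 6 higher, with a median of -0.93. Both medians were near that of the splicing genes. Cytosolic ribosomal protein genes differed, with 14 of 61 lower, 24 higher and a median of 0.41.

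**Figure D5:**
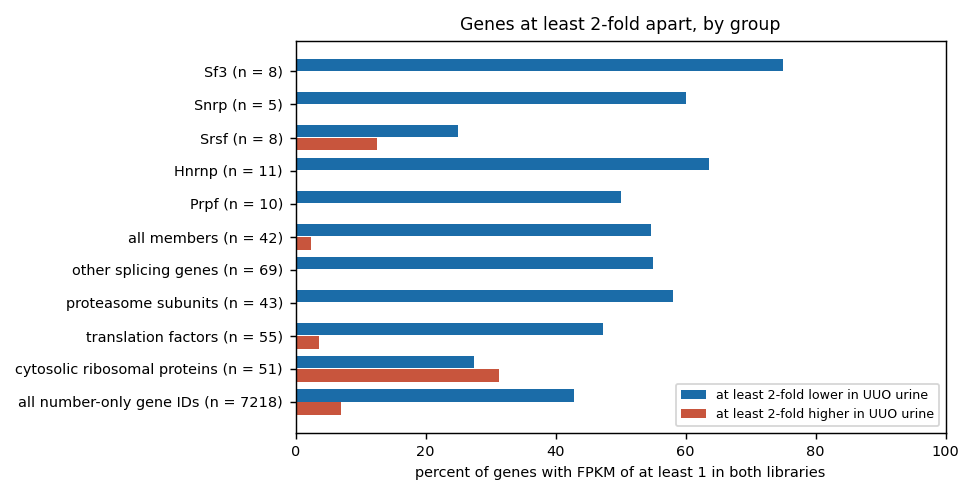
Percent of genes at least 2-fold lower (blue) and at least 2-fold higher (red) in UUO urine among genes detected in both libraries, for the 5 families, all splicing genes of the families, other splicing genes, 3 comparison groups and all genes with an NCBI gene ID. The lower share is 75% for Sf3 and 25% for Srsf genes against 42.8% of all genes. The higher share passes 7.01% only in the ribosomal protein group (16 of 51 genes) and, by Srsf4 alone, in the Srsf group (1 of 8).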

How the data were processed

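Urine RNA of 1 WT (sham-operated) and 1 UUO rat library was used. The authors deposited 1 FPKM value per feature and library in a table laid out like Cuffdiff output. The submitters' processing notes list rn5, Bowtie2 2.0.6, TopHat2 2.0.9, Cufflinks 2.1.1 and Cuffdiff 2.1.1, and loci are given as in the table and taken as rn5. Gene and noncoding entries overlap at many loci. How fragments were divided between them was not examined, which makes single values uncertain. The table's own columns of ratios, p-values and q-values were not used. Symbols came from RefSeq (GRCr8), which matched 16329 of 16484 number-only gene IDs (99.1%). Coordinates of GRCr8 are given for promoter sequences alone.

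Differences of log2(FPKM + 1) were computed in Python 3.11.15 with pandas 2.3.3. The calculation was run on WT values multiplied by known factors, without noise or zeros, which checks the arithmetic alone. Genes with an FPKM of at least 1 in either library were counted at 2-fold. With 1 library per group no test was run. Fragment steps were fitted on assembled features alone at loci of 400 to 1200 bp, and 93.5% of 186 WT and 99.3% of 3530 UUO values came within 0.1 of a whole number. The range searched held no multiple of the fitted totals, and a multiple would give whole numbers too. The paper puts the reads of each sample at a higher level, and the fitted totals were not checked against it. The precision that depth gives is otherwise unknown. Ribosomal proteins were taken as symbols beginning with Rpl or Rps, leaving out the Rps6k kinases. Proteasome subunits were taken as symbols beginning with Psma to Psmg, and translation factors as those beginning with Eif or Eef. Other proteins with such names were not left out, and Eif4a3 thus also counts among the splicing genes outside the families.

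Genes named are, per family, the 3 most abundant, the 3 with the greatest difference in each direction and those at 0 in 1 library. Of other splicing genes the 2 with the greatest difference in each direction per role are named. Other names were added after their values were seen. The genes, lists and motifs were chosen with earlier results of these data known. The alternatives were 2 rescalings, 2 pseudocounts, other limits and locus sums. The values of 1 gene are not reported here, although it enters the counts, sums and medians.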

Additional observations from a re-analysis of the deposited data

How the results depend on the processing

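No paired analysis was possible because there is 1 library per group. A median was taken as moved when it changed sign or crossed 1 in size, and a count or share when it changed by over 1.5 times. The median over all genes of the 5 families, -0.999, was -1.09 with a pseudocount of 0.1, -1.13 for genes that reached FPKM 5 in 1 or both libraries, -1.16 for those that reached 1 in both, -1.38 with at least 10 in either (chosen after seeing the data) and -1.04 with locus sums. By the median ratio the medians were -0.78 (Sf3), -0.34 (Snrp), 1.04 (Srsf), -0.53 (Hnrnp) and 0.0077 (Prpf). That scaling left 12 genes lower, and of all genes with an NCBI gene ID 39.8% higher and 15.6% lower. A pseudocount of 10 gave -0.97 (Sf3) and -0.79 (Snrp), 3 genes higher, and 3.76% of all genes higher and 18.0% lower. The Snrp median was -0.87 with equal sums, -0.20 without a filter and -0.77 with locus sums. The Srsf median was -0.055 with FPKM of at least 1 in both libraries, -0.48 with locus sums and -0.20 with at least 10 in either. The Prpf median was -1.07 and -1.21 under the first and last of these. With FPKM of at least 1 in both libraries 1 gene was higher, and with at least 10 in either 3. A 4-fold limit gave 10 genes lower, and 10.7% of all genes higher and 12% lower. The share of all genes higher was 14.0% for genes that reached FPKM 5 in 1 or both libraries, 7.01% with at least 1 in both and 10.4% with at least 10 in either. Without a filter it was 15.4%, with 21.8% lower. Limits on the level change which genes can count, and rescaling raises all UUO values by 1 factor. With locus sums, which add the overlapping entries, Hnrnpa3 reversed to 0.079 and Srsf10 to -1.74. Whether those entries hold fragments of the gene was not tested. The other 70 of 106 values of medians, counts and shares were not moved.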
